A study of Mus musculus with 19 samples.

Results

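The genes described here are 10 tubulin isotypes of the mouse hippocampus, 4 encoding alpha tubulin (Tuba1a, Tuba1b, Tuba1c and Tuba4a) and 6 encoding beta tubulin (Tubb2a, Tubb2b, Tubb3, Tubb4a, Tubb5 and Tubb6). They were taken by symbol from a count table of 55416 genes, and 10 of 10 passed the filter on low counts, which 19234 genes passed. The members were chosen by earlier results of these libraries, taken here to be the kainate comparisons. Their kainate values are therefore given as a description. Counts of members passing there are printed with nothing read from them. The same limit holds for the difference of the kainate responses, which is built from those values. The comparisons between genotypes after saline and after kainate are tested. They use the same libraries as the kainate comparisons, so a choice made on kainate values may also bear on their p-values.

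The study compared hippocampal RNA of C57BL6 mice with neuronal loss of EZH2, the enzyme that places the repressive H3K27me3 mark, and of controls. The libraries labelled WT came from EZH2(+/+);Syn1Cre(+/-) mice and those labelled EZH2nHom from EZH2(-/-);Syn1Cre(+/-) mice. All 4 groups therefore carried the Synapsin1-driven Cre, which is active in neurons, and the glia of an EZH2nHom hippocampus kept their EZH2. Each genotype was sampled 4 days after status epilepticus from repeated low doses of kainate, or after saline, giving 5 libraries of each genotype after saline, 5 WT libraries after kainate and 4 EZH2nHom libraries after kainate. Nothing in the labels ties a library to a separate animal beyond its own code, so p-values measure the spread between these libraries. In whole tissue, fewer cells of a type and less RNA per cell cannot be told apart.

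Alpha and beta tubulin pair into dimers that polymerise into microtubules, the tracks and struts of axons, dendrites and mitotic spindles. The isotypes share a nearly constant core and differ mostly in an acidic carboxy-terminal tail, which projects from the microtubule and carries polyglutamylation, glycylation and, on most alpha isotypes, a removable last tyrosine. Tubulin messages are also degraded when free dimers accumulate, through recognition of the first residues of the new chain. In the brain Tuba1a, Tubb2a, Tubb2b and Tubb3 are the main neuronal isotypes, Tubb4a is abundant in myelinating oligodendrocytes, and Tubb6 is normally low.

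The coding 3′ ends of 7 members are shown because they are where the isotypes part from each other and because those of Tubb2a and Tubb2b show how alike the closest pairs are. They are the last 60 coding bases, stop codon included, from GENCODE M21 transcripts of GRCm38, with in-frame glutamate codons in capitals.
Tuba1c: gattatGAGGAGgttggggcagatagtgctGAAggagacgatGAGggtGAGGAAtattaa
Tuba4a: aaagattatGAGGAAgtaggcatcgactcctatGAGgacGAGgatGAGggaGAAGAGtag
Tubb2a: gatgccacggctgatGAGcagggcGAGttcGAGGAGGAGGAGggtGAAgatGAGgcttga
Tubb2b: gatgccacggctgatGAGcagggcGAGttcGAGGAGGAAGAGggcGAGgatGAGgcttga
Tubb3: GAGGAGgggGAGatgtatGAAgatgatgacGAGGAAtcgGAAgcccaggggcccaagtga
Tubb4a: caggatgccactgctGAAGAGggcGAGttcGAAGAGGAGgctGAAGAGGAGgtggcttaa
Tubb5: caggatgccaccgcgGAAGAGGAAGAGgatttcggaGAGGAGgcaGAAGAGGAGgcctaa
Among the alpha tails Tuba1c holds 6 glutamate codons and ends in the tyrosine codon TAT, and Tuba4a holds 7 and ends in the glutamate codon GAG. The beta tails hold 7 glutamate codons in Tubb3, 8 in Tubb2a, Tubb2b and Tubb6, and 9 in Tubb4a and Tubb5.

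Sequence likeness limits what read counts can say of single members. The coding sequences of Tuba1a and Tuba1b are 98.3% identical, those of Tuba1a and Tuba1c 97.1%, those of Tuba1b and Tuba1c 97.9% and those of Tubb2a and Tubb2b 96.5%, against 84.7% for Tuba1a and Tuba4a. Of all 75-base words of the main transcript, 68.2% in Tuba1a, 71.9% in Tuba1b, 56.7% in Tuba1c, 43.2% in Tubb2a and 32.2% in Tubb2b also occurred in another gene. The split of reads among these 5 members is uncertain for that reason, and how shared reads were assigned is not given in the sources used here. In the other 5 members the share was 0.00%.

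A further gene model overlaps the Tuba1a and Tuba1b counts. Gm49450, annotated across both genes on the same strand, has 100% of its exon bases inside exons of other models. It shares 26.2% of the exon bases of Tuba1a and 22.7% of those of Tuba1b, and no other member shares exon bases with a model of its strand. Gm49450 lay between 0.00 and 0.646 CPM (reads scaled to a common library total with a TMM composition factor) in the 10 WT libraries. In the 9 EZH2nHom libraries it lay between 25.9 and 87.5 CPM. It was 1 of 2 genes under 1 CPM in every WT library and over 3 CPM in every EZH2nHom library, and 0 genes showed the opposite pattern. This bears on every genotype result for Tuba1a and Tuba1b, their shares and sums included. The opposite-strand gene Stk16 overlaps Tuba4a, with a mean of 859.2 reads against 11407.6, and the strand setting of the counting is not given. The same-strand model Gm20388 spans Tubb3 without sharing exon bases, with a mean of 1437.3 reads against 7115.7.

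Total counts ran from 24496685 to 43948317 reads per library. Ezh2 itself, counted over the whole gene in whole tissue, lay between 9.61 and 12.9 CPM after saline in WT and between 11.8 and 15.5 CPM in EZH2nHom (log2 change 0.27 ± 0.16 SE, adjusted p = 0.288, edgeR quasi-likelihood test), so these counts do not show the deletion. Xist was above 100 CPM in 2 saline and 2 kainate libraries of WT, and in 0 saline and 1 kainate libraries of EZH2nHom, so Xist was uneven over the groups. Sample codes carry 13 prefixes whose meaning is not stated. Of these, 0 occurred in both genotypes, so genotype and code prefix cannot be told apart. Short structural RNAs took 0.06% to 0.09% of reads in WT saline and 0.07% to 0.22% in WT kainate libraries. They took 0.23% to 0.77% in EZH2nHom saline and 0.2% to 0.78% in EZH2nHom kainate libraries. All 12 listed mature neuron markers and all 9 astrocyte markers were read, summing to 5711 to 6378 and 6066 to 6738 CPM in WT saline libraries.

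Tuba1a was the most abundant member per kilobase in all 4 groups. In WT saline hippocampus its level was 503 ± 20.3 (SD, n = 5) as RPKM, the CPM divided by exon length in kilobases, above every library's value for any other member. Tubb2a at 320 ± 32.3 and Tuba1b at 284 ± 17.2 RPKM followed with overlapping values. Tubb3 (105 ± 6.48 RPKM), Tubb5 (103 ± 6.34), Tuba4a (99.8 ± 6.12), Tubb4a (87.1 ± 6.35) and Tubb2b (72.5 ± 5.98) formed a middle tier in which each neighbour in the order overlapped the next. Tuba1c at 3.41 ± 2.63 and Tubb6 at 0.281 ± 0.0657 RPKM were far lower and did not overlap each other. The first 3 and the last 2 places of this order were the same in all 4 groups. The middle tier changed order. After kainate Tuba4a came last in it in both genotypes, with 88.2 ± 23.4 RPKM in WT (SD, n = 5) and 71.5 ± 14.7 in EZH2nHom (SD, n = 4), and in EZH2nHom Tubb5 came first.

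**Figure D1:**
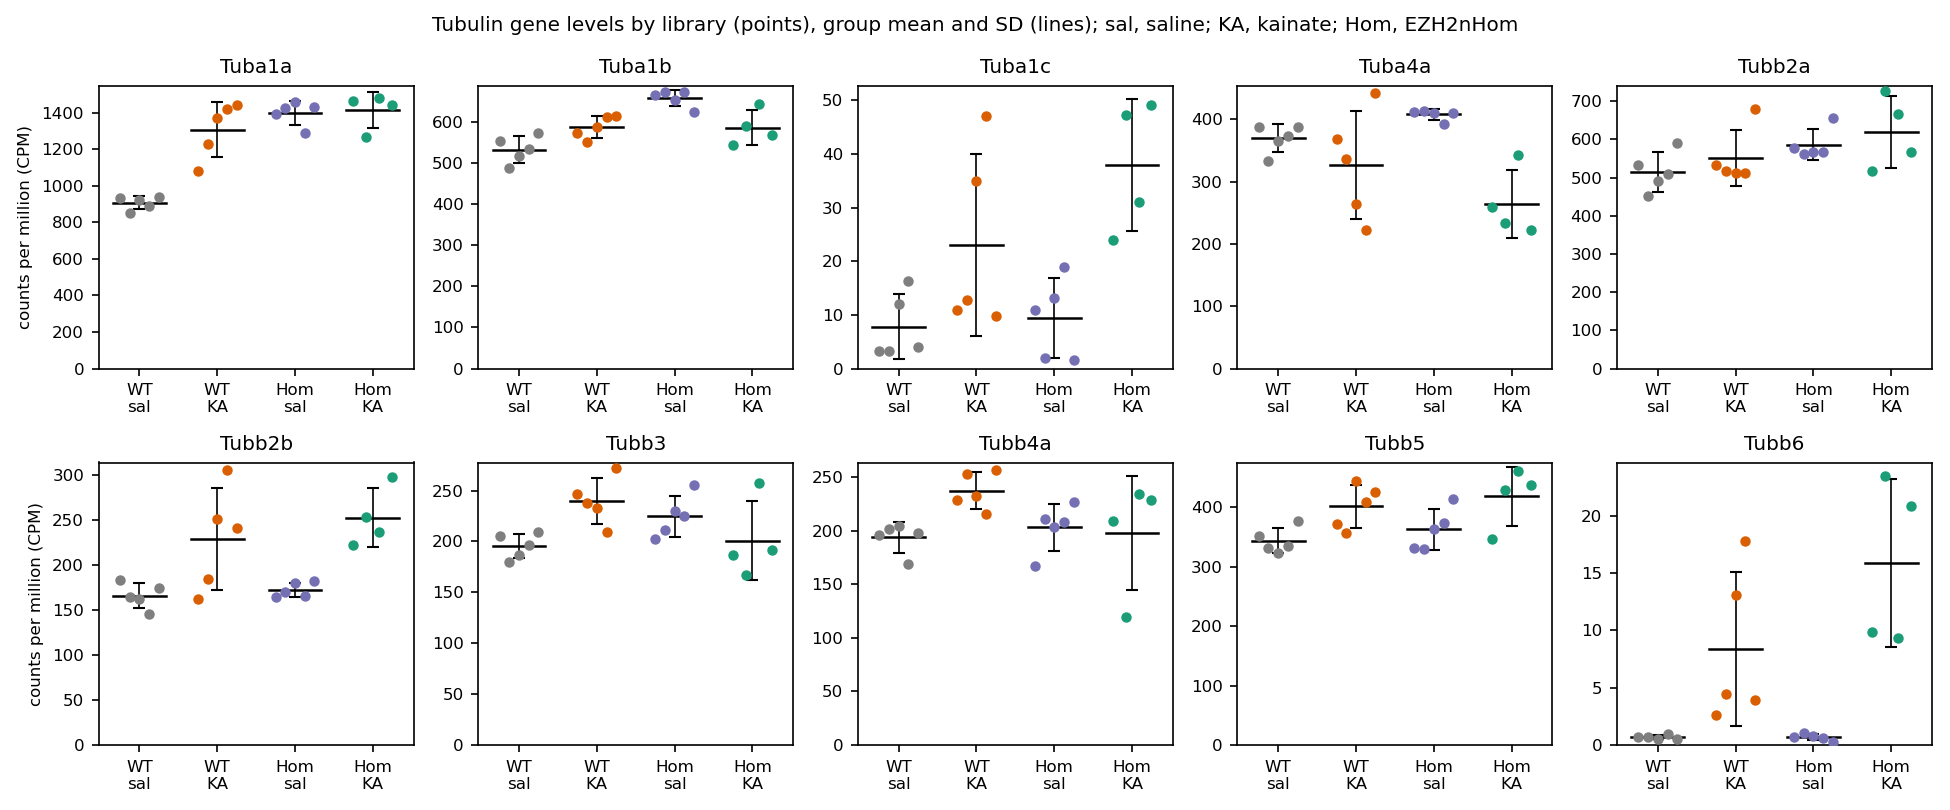
CPM of each of the 10 tubulin genes (vertical axes from 0, each with its own range) by group (horizontal axis), 1 point per library with the group mean and SD as lines. Tuba1a lies between 852 and 938 CPM in WT saline libraries and between 1083 and 1480 in all the others, and Tubb6 lies at or under 1.08 CPM in every saline library.

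Kainate in WT hippocampus was accompanied by higher Tuba1a, Tubb2b and Tubb6 counts, with Tuba1c, Tubb3, Tubb4a and Tubb5 also higher on average and Tuba4a lower. The median log2 change of the 10 members was 0.29, against -0.02 over all genes tested, and 9 of 10 were above 0. With 12% of all genes passing at an adjusted p under 0.05 (9.47% higher and 2.57% lower), 3 members passed, all higher. The CPM of the groups did not overlap for 4 members, all higher, against 14.4% of all genes (9.79% higher and 4.63% lower). Under the replicate block 5 members passed, Tuba1c and Tubb3 being added, with 2477 of all genes passing. The choice of members used this contrast, so nothing is read from these counts.

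Kainate in EZH2nHom hippocampus was accompanied by higher Tuba1c, Tubb2b and Tubb6 counts and lower Tuba4a counts. The median log2 change of the members was 0.05, against -0.02 over all genes. Of the 10 members 4 passed, 3 higher and 1 lower, with 26.1% of all genes passing (14.3% higher and 11.8% lower). The groups did not overlap for the same number, 3 higher and 1 lower, against 19.2% of all genes (9.93% higher and 9.23% lower). The choice of members used this contrast too, so nothing is read from these counts either.

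**Figure D2:**
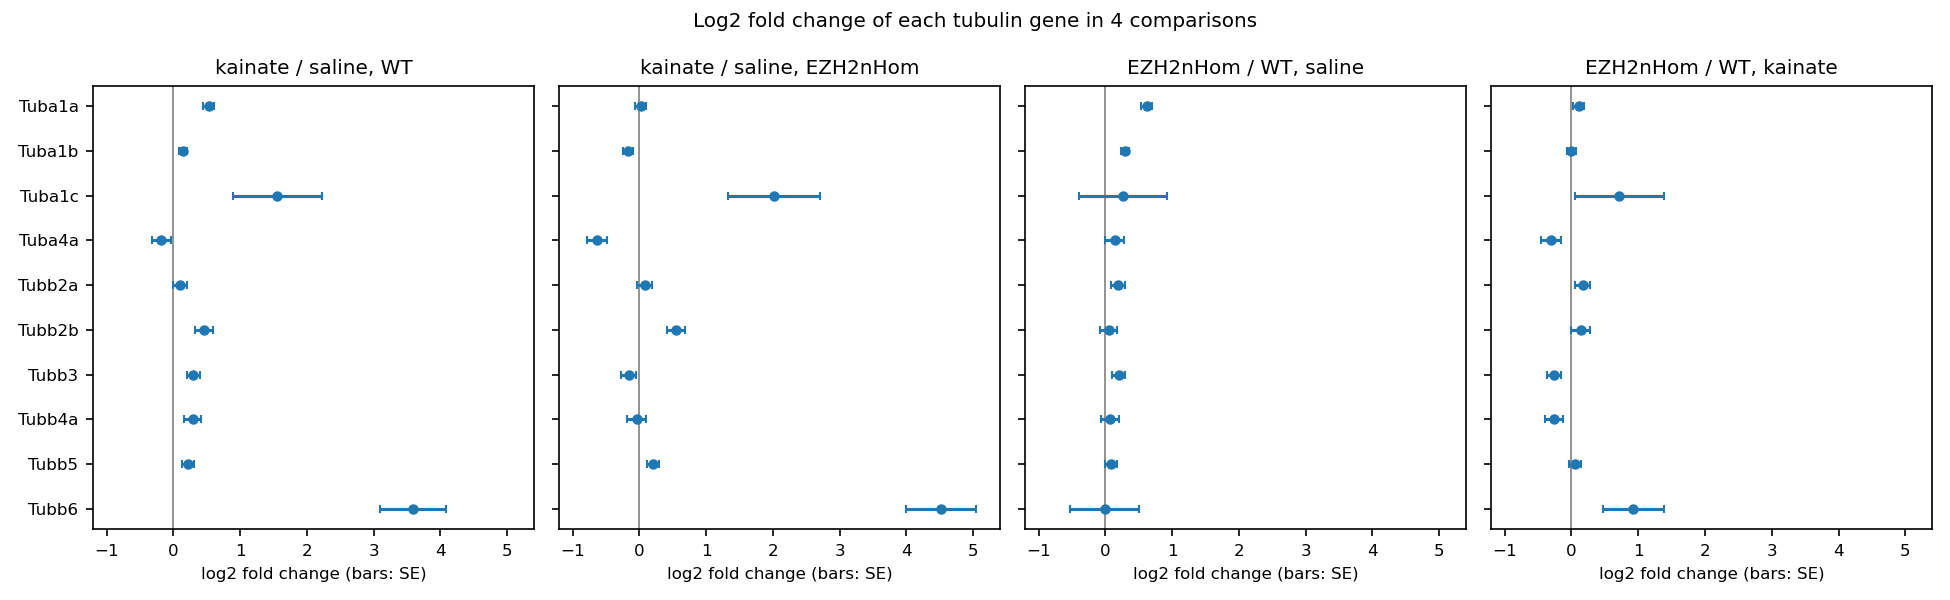
Log2 fold change (horizontal axis, bars are SE) of each tubulin gene (vertical axis) in the 4 comparisons, kainate against saline in each genotype and EZH2nHom against WT after each treatment. Tubb6 has the furthest points, 3.59 and 4.52 after kainate, and Tuba1a is at 0.53, 0.02, 0.62 and 0.11.

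Among the alpha isotypes Tuba1a, the main alpha tubulin of developing and mature neurons, set WT saline hippocampus apart from the other groups. WT saline replicates 1 to 5 had 935, 852, 923, 890 and 938 CPM. WT kainate replicates 1 to 5 had 1083, 1226, 1369, 1418 and 1441 CPM. Every WT kainate library was above every WT saline library, and replicate 1 was the lowest of them. EZH2nHom saline replicates 1 to 5 had 1392, 1425, 1457, 1291 and 1429 CPM. EZH2nHom kainate replicates 1 to 4 had 1464, 1268, 1480 and 1444 CPM. The EZH2nHom groups overlapped each other and the upper WT kainate libraries. The kainate log2 change was 0.53 ± 0.08 (SE) in WT and 0.02 ± 0.08 in EZH2nHom. Of the code prefixes, 2 occurred in both WT arms. Within the one, Tuba1a was at 890 CPM in saline replicate 4 and 1083 in kainate replicate 1, and within the other at 852 in saline replicate 2 against 1226, 1369 and 1418 in kainate replicates 2, 3 and 4.

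After saline, Tuba1a was higher in EZH2nHom than in WT by a log2 change of 0.62 ± 0.08 (adjusted p = 4.27e-05, edgeR quasi-likelihood test), a fold of 1.54, with 1399 ± 64.7 against 908 ± 36.5 CPM (SD, n = 5 each). All 5 EZH2nHom libraries were above all 5 WT libraries. Summed cell type markers were also apart between these libraries. Immature neuron markers, all 9 measured, summed to 332 to 395 CPM in EZH2nHom and 238 to 257 in WT. Astrocyte markers summed to 4833 to 5411 against 6066 to 6738 CPM, and microglia markers to 372 to 419 against 430 to 484 CPM. Of the immature neuron markers only Neurod6 passed (0.92 ± 0.22), with Sox4 at 0.50 ± 0.18, Sox11 at 0.02 ± 0.23 and Dcx at -0.17 ± 0.11. Of the astrocyte markers Slc1a2 (-0.52 ± 0.13) and Sox9 (-0.77 ± 0.21) passed, with Gfap at -0.06 ± 0.18 and Aqp4 at 0.07 ± 0.18. Csf1r, the microglia marker of smallest p, did not pass (-0.44 ± 0.20). The part of these cell types in the Tuba1a and Tuba1b results was not tested. The test passed under every alternative tried, with log2 changes from 0.39 to 0.65. The lowest came with library totals as the only scaling, which moved the median of all genes to -0.22. With only the libraries without Xist reads the change was 0.56 (adjusted p = 0.00432), and with the structural RNA share as a covariate it was 0.61 (adjusted p = 0.000604). The kainate change in WT and this genotype change are both set against the same 5 WT saline libraries. A choice of members by the kainate change can therefore favour this genotype change, and its p-value carries that limit.

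Tuba1b, a broadly expressed alpha tubulin, differed less. Its counts were 554, 489, 516, 533 and 572 CPM in WT saline replicates 1 to 5. The EZH2nHom saline replicates had 666, 673, 654, 672 and 625 CPM, all above the WT libraries. The log2 change was 0.30 ± 0.06 (adjusted p = 0.00375, edgeR quasi-likelihood test). This call was lost without WT saline replicate 2 (0.23, adjusted p = 0.0506), with only the libraries without Xist reads (0.23, adjusted p = 0.124) and with library totals as the only scaling (0.07, adjusted p = 0.562, median of all genes -0.22). After kainate Tuba1b lay between 550 and 614 CPM in WT and between 544 and 643 CPM in EZH2nHom, and its kainate log2 changes were 0.14 ± 0.06 and -0.17 ± 0.07.

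Gm49450 moved with genotype beside both of these genes, with a log2 change of 7.55 ± 0.63 after saline (adjusted p = 1.04e-06) and 7.48 ± 0.65 after kainate (adjusted p = 7.67e-06, edgeR quasi-likelihood test). Its CPM summed with those of Tuba1a and Tuba1b was 1441 ± 65.7 in WT saline and 2103 ± 66.1 in EZH2nHom saline libraries (SD, n = 5 each), ranging from 1342 to 1511 and from 1988 to 2145. These sums did not overlap. Among 72 genes with over 20% to 30% of their exon bases in another model, 25.0% were higher in every EZH2nHom saline library than in every WT saline library. That share was 15.7% among 13826 genes with none. The shares lower in every EZH2nHom saline library were 11.1% and 9.14%, and the median log2 changes were 0.08 and 0.04. After kainate Tuba1a differed between genotypes by 0.11 ± 0.08 (adjusted p = 0.439, edgeR quasi-likelihood test). The part of the nested model and of shared exon bases in the Tuba1a and Tuba1b results was not tested after either treatment.

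**Figure D3:**
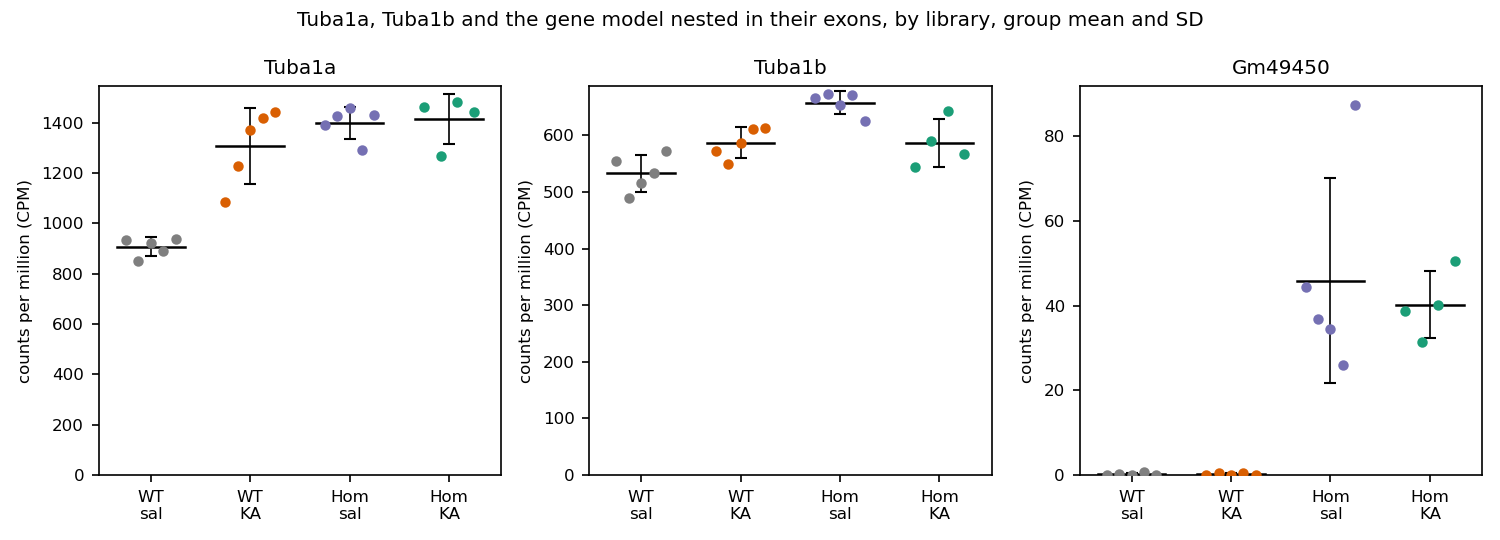
CPM (vertical axes from 0) of Tuba1a, Tuba1b and the nested gene model Gm49450 by group, 1 point per library with mean and SD. Gm49450 is at or under 0.646 CPM in all 10 WT libraries and between 25.9 and 87.5 in all 9 EZH2nHom libraries. Tuba1a is lowest in the WT saline libraries.

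Tuba1c, a minor alpha tubulin, had a coefficient of variation of 32.4% to 79.9% over libraries of the same group. Its saline values were 3.29, 3.33, 12, 16.3 and 3.98 CPM in WT and 10.9, 1.99, 13.2, 18.9 and 1.63 CPM in EZH2nHom. Each saline group thus held a low set and a high set. After kainate it was at 10.9, 12.8, 35.0, 47.1 and 9.75 CPM in WT and 24.0, 47.3, 31.1 and 49.2 CPM in EZH2nHom. WT kainate libraries overlapped WT saline libraries, and EZH2nHom kainate libraries were all above EZH2nHom saline libraries. Each WT kainate library was above the WT saline library of its own number, in 5 of 5 cases, though no label pairs these numbers. Within the code prefixes shared by the WT arms, Tuba1c was not always higher after kainate. It was at 16.3 CPM in saline replicate 4 and at 10.9 in kainate replicate 1 of the same prefix. Within the other prefix it was at 3.33 CPM in saline replicate 2 against 12.8, 35.0 and 47.1 in kainate replicates 2, 3 and 4. The log2 changes were 1.56 ± 0.66 and 2.02 ± 0.69 (SE).

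Markers of choroid plexus and ependyma moved with the high and low saline sets of Tuba1c. All 6 listed markers were measured. The 5 saline libraries with Tuba1c at 10.9 CPM or more had summed marker levels of 2595 to 3867 CPM. The 5 others, at 1.63 to 3.98 CPM, had sums of 27.4 to 417 CPM. After kainate the marker sums were 20.0 to 1130 CPM, below the sums of the high saline set and overlapping those of the low one. WT kainate replicates 1 and 3, with sums of 1130 CPM each, had Tuba1c at 10.9 and 35.0 CPM, while replicate 4 had a sum of 66.5 and Tuba1c at 47.1. The part of these markers' cells in the Tuba1c counts was not tested. With the log2 marker sum as a covariate, a choice made after these values were seen, the kainate log2 changes were 2.10 in WT and 3.23 in EZH2nHom. The genotype change after saline was 0.26 ± 0.66 (adjusted p = 0.851, edgeR quasi-likelihood test) and -0.01 with that covariate.

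**Figure D4:**
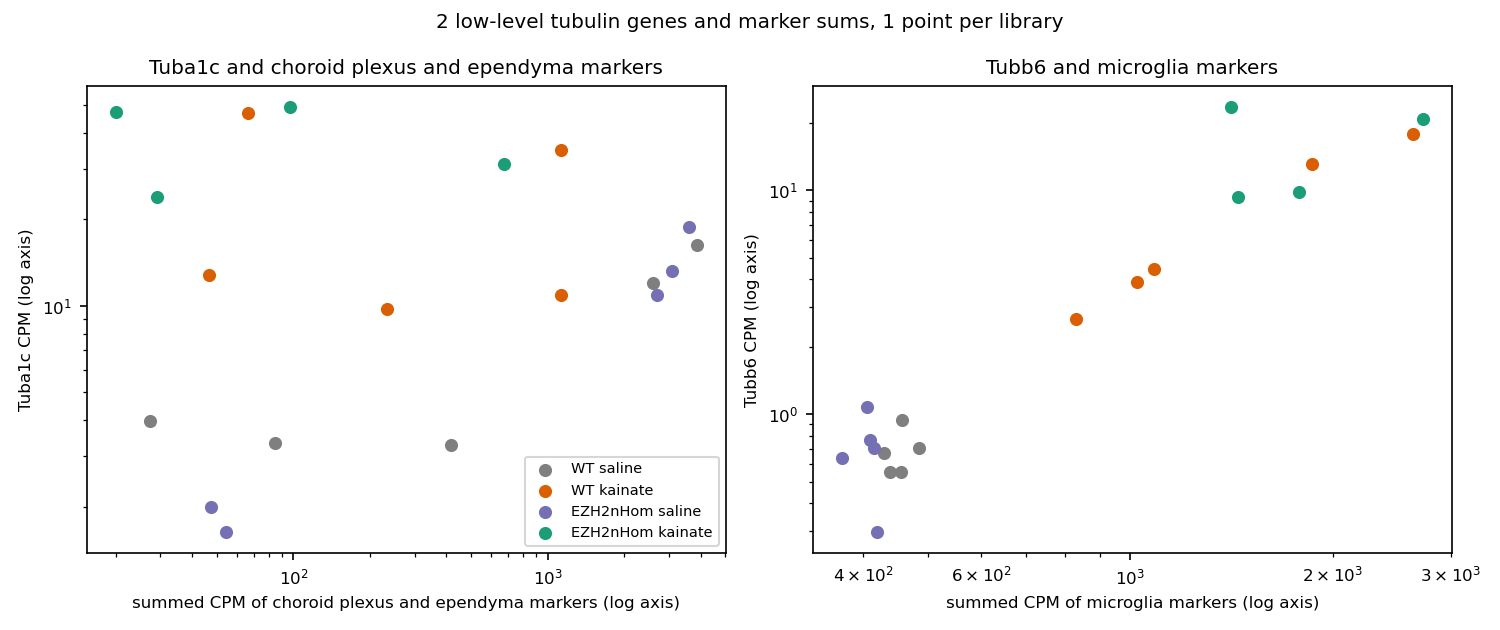
CPM of Tuba1c against the summed CPM of choroid plexus and ependyma markers (left) and CPM of Tubb6 against the summed CPM of microglia markers (right), log axes, 1 point per library. Saline libraries with Tuba1c of 10.9 CPM or more sit at marker sums of 2595 or more, and every saline library has Tubb6 at or under 1.08 CPM with a microglia sum at or under 484.

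Tuba4a, the alpha tubulin whose gene does not encode the final tyrosine, had lower mean counts after kainate in both genotypes, the only member to do so. WT saline replicates 1 to 5 had 388, 333, 365, 374 and 387 CPM, and WT kainate replicates had 369, 336, 264, 222 and 442 CPM. The WT kainate libraries spread on both sides of the saline range. EZH2nHom saline replicates had 412, 413, 411, 393 and 411 CPM, and EZH2nHom kainate replicates 1 to 4 had 260, 233, 343 and 223 CPM, all lower. The kainate log2 change was -0.18 ± 0.14 in WT and -0.63 ± 0.15 in EZH2nHom. The sum of the mature neuron markers, all 12 measured, moved with Tuba4a in WT kainate libraries. In replicates 1 to 5 it was 6313, 5611, 4482, 3748 and 6482 CPM, the same order of libraries as for Tuba4a. In EZH2nHom it was 5772 to 6459 CPM after saline. After kainate it was 4501, 4861, 5191 and 3860 CPM in replicates 1 to 4, with replicates 1 and 2 in the other order than for Tuba4a. Single markers differed in their kainate change in EZH2nHom. Gad2 (-0.64 ± 0.14) and Snap25 (-0.57 ± 0.16) passed, while Syn1 (0.16 ± 0.17) and Nefm (0.22 ± 0.15) did not. The part of these markers' cells in the Tuba4a result was not tested. After saline all 5 EZH2nHom libraries were above all 5 WT libraries, with a log2 change of 0.14 ± 0.14 (adjusted p = 0.579, edgeR quasi-likelihood test), which did not pass.

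The isotype composition of alpha tubulin, as a share of the reads of all 8 alpha tubulin genes, does not depend on library scaling. After saline Tuba1a held 49.8% ± 0.855 of alpha reads in WT and 56.3% ± 1.41 in EZH2nHom (SD, n = 5 each), a difference of 6.53 points. Tuba1b held 29.2% and 26.5%, and Tuba4a held 20.2% and 16.4%. Each of these 3 differences had an exact two-sided permutation p of 0.00794, the smallest the relabellings can give, and 0.0265 after Benjamini-Hochberg adjustment over the 10 members. The shares of a family sum to a constant and these 3 genes hold nearly all alpha reads, so the 3 differences are not independent results. In CPM, Tuba1b and Tuba4a were higher in every EZH2nHom saline library than in every WT one, Tuba4a without passing by edgeR. Their shares were lower. The Tuba1b share did not pass without any one of the 5 WT saline libraries (adjusted exact p = 0.0529 in each case), where its difference lay between -2.51 and -2.92 points. Of the 6 beta members, 0 passed for their share of beta reads after saline, and the nearest was Tubb3 with 12% against 12.6% (exact p = 0.0238, adjusted 0.0595). It passed without EZH2nHom saline replicate 1 (0.771 points, adjusted exact p = 0.0198). After kainate 0 of the 10 shares passed (smallest adjusted exact p = 0.265), and Tuba1a held 58.0% ± 3.37 in WT and 61.2% ± 2.52 in EZH2nHom.

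**Figure D5:**
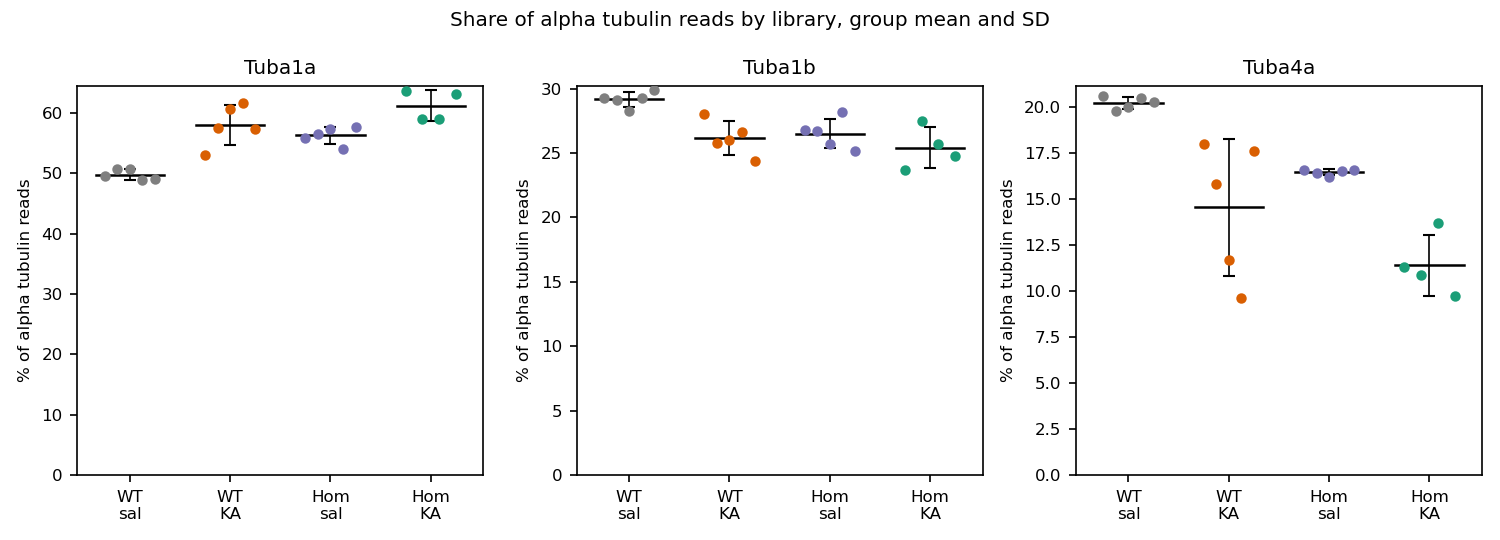
Share of all alpha tubulin reads (vertical axes from 0, in %) held by Tuba1a, Tuba1b and Tuba4a by group, 1 point per library with mean and SD. The Tuba1a share is 48.9% to 50.7% in WT saline and 54.1% to 57.7% in EZH2nHom saline libraries, and the Tuba4a share is lowest after kainate.

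Summed over the 5 alpha genes that passed the filter, alpha tubulin stood at 1824 ± 89.1 CPM in WT after saline and 2250 ± 180 after kainate (SD, n = 5 each). In EZH2nHom it stood at 2483 ± 61.2 CPM after saline (SD, n = 5) and 2309 ± 150 after kainate (SD, n = 4). The WT saline libraries, from 1682 to 1911 CPM, lay below all the others, the next lowest being 2043. Summed beta tubulin, over 7 genes, was 1634 ± 92.7, 1895 ± 142, 1783 ± 113 and 1917 ± 185 CPM in the same order of groups.

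Among the beta isotypes Tubb6, whose level in brain is normally minimal, had the largest kainate change. WT saline replicates 1 to 5 had 0.709, 0.673, 0.551, 0.943 and 0.553 CPM, and EZH2nHom saline replicates had 0.704, 1.08, 0.770, 0.639 and 0.297 CPM. These values rest on 10 to 35 reads per library. WT kainate replicates 1 to 5 had 2.66, 4.43, 13.1, 17.8 and 3.91 CPM, and EZH2nHom kainate replicates 1 to 4 had 9.87, 23.5, 9.35 and 20.9 CPM. Every kainate library was above every saline library, by a fitted fold of 12 in WT (log2 3.59 ± 0.50) and 23.0 in EZH2nHom (4.52 ± 0.52). Within the code prefixes shared by the WT arms, Tubb6 was at 0.943 against 2.66 CPM, and at 0.673 against 4.43, 13.1 and 17.8 CPM. Between genotypes after kainate the log2 change was 0.93 ± 0.45 (adjusted p = 0.212, edgeR quasi-likelihood test). Without WT kainate replicate 4, the highest of its group, it was 1.41 (adjusted p = 0.037).

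Microglia markers, all 10 measured, moved with Tubb6. Their summed level was 430 to 484 CPM after saline and 830 to 2639 after kainate in WT, and 372 to 419 and 1410 to 2727 in EZH2nHom. The 5 WT kainate libraries had the same order for both, and the summed markers of astrocytes, oligodendrocyte precursors, infiltrating leukocytes (6 of 10 measured) and proliferating cells had that order too. Single markers within these sums differed. After kainate in WT the precursor marker Vcan rose (0.93 ± 0.21) and Pdgfra fell (-0.47 ± 0.14). The astrocyte marker Gfap rose (3.27 ± 0.20), with Slc1a2 at -0.09 ± 0.13. In EZH2nHom kainate libraries the highest Tubb6 level, 23.5 CPM in replicate 2, came with the lowest microglia marker sum, 1410 CPM. The genes most like Tubb6 over the 19 libraries by Pearson correlation of log2 CPM were Serpina3n (0.99), a reactive astrocyte protease inhibitor, Vim (0.98), an intermediate filament of reactive astrocytes, and C1qb (0.98), a complement subunit of microglia. Astrocyte markers, summed over 9 genes, were 6066 to 6738 CPM in WT saline and 8749 to 10855 in WT kainate libraries. The part of any cell type in the Tubb6 counts was not tested.

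Tubb2b, a beta tubulin of neuronal precursors that is also made by glia, was higher after kainate in both genotypes. WT saline replicates 1 to 5 had 183, 165, 162, 146 and 174 CPM, and WT kainate replicates had 162, 185, 251, 306 and 241 CPM. Replicate 1 stayed inside the saline range and the other 4 were above it. EZH2nHom saline replicates had 165, 170, 180, 166 and 182 CPM, and EZH2nHom kainate replicates 1 to 4 had 222, 253, 237 and 298 CPM, all higher. The log2 changes were 0.46 ± 0.13 and 0.55 ± 0.14. Its close relative Tubb2a differed little, with log2 changes of 0.10 ± 0.10 and 0.08 ± 0.11. Tubb2b thus made up 10.2% ± 0.751 of beta reads in WT saline and 12.1% ± 2.77 in WT kainate libraries. The corresponding shares of Tubb2a were 31.4% ± 1.40 and 29.0% ± 2.10.

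Tubb3, the beta tubulin used as a marker of neurons, went different ways on average in the 2 genotypes. WT saline replicates 1 to 5 had 205, 180, 187, 196 and 209 CPM, and WT kainate replicates had 247, 238, 233, 209 and 272 CPM. The WT groups were apart by a margin too small to show in rounded values, since the highest saline and lowest kainate library both read 209. EZH2nHom saline replicates had 202, 211, 230, 225 and 255 CPM, and EZH2nHom kainate replicates 1 to 4 had 187, 167, 257 and 192 CPM. These overlapped, since replicate 3 was the highest of both groups. The kainate log2 change was 0.30 ± 0.10 in WT and -0.16 ± 0.11 in EZH2nHom. The difference of the responses, -0.46 ± 0.15, did not pass (adjusted p = 0.456, edgeR quasi-likelihood test). It is built from the kainate changes taken to have chosen the members. Between genotypes after kainate Tubb3 was at -0.26 ± 0.11 (adjusted p = 0.149), and without EZH2nHom kainate replicate 3 at -0.40 (adjusted p = 0.0174).

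Tubb4a, abundant in myelinating oligodendrocytes and also made by neurons, ranged from 169 to 205 CPM in WT saline and from 216 to 257 CPM in WT kainate libraries without overlap (log2 change 0.29 ± 0.13). In EZH2nHom it ranged from 167 to 227 CPM after saline and from 120 to 234 CPM after kainate (-0.04 ± 0.14), the 120 being replicate 2. Tubb5, a broadly expressed beta tubulin of dividing and developing cells, had overlapping ranges. It ran from 323 to 376 and from 357 to 444 CPM in WT saline and kainate libraries, and from 330 to 413 and from 347 to 461 CPM in EZH2nHom. Its log2 changes were 0.22 ± 0.09 and 0.21 ± 0.09. Proliferation markers, all 8 measured, rose in both genotypes, with summed levels of 49.9 to 60.3 CPM in WT saline and 115 to 422 in WT kainate libraries.

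Over all members, EZH2nHom against WT after saline had 2 of 10 passing, Tuba1a and Tuba1b, both higher, with 13.5% of all genes passing (8.33% higher and 5.16% lower). The groups did not overlap for 3 members, all higher, against 21.3% of all genes (12.9% higher and 8.42% lower). The median log2 change of the members was 0.17, against 0.02 over all genes. After kainate 0 of 10 passed by edgeR or by DESeq2, with 7.61% of all genes passing by edgeR (4.56% higher and 3.04% lower). Of the members 1 had an unadjusted p under 0.05, and 0 had groups without overlap, against 7.26% of all genes (4.13% higher and 3.13% lower). For the difference of the kainate responses 0 of 10 members passed, as did 0.00% of all genes, and 4 members had an unadjusted p under 0.05. The lowest adjusted p was 0.408, for Tuba1a (-0.51 ± 0.12). The DESeq2 Wald test passed 1 member here, Tuba1a at -0.49 (adjusted p = 0.0414), and 14 of all genes. This contrast is built from the 2 kainate changes taken to have chosen the members. Nothing is read from its counts or p-values for that reason.

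The members varied together only in part. Over the 19 libraries, which share their 4 groups, the Pearson correlation of log2 CPM was 0.87 for Tubb2b and Tubb6, 0.80 for Tuba1c and Tubb6, 0.78 for Tubb2b and Tubb5, and 0.72 for both Tubb3 with Tubb4a and Tuba1a with Tuba1b. It was -0.83 for Tuba4a and Tubb6. Computed on deviations from the group means, it was -0.76 for that pair. For the other pairs it was 0.63 for Tubb2b and Tubb6, 0.54 for Tuba1c and Tubb6, and 0.55 for Tubb2b and Tubb5. It was 0.64 for Tubb3 and Tubb4a and 0.37 for Tuba1a and Tuba1b. The genes most like each member by correlation over the 19 libraries included Vps28 (0.92), an endosomal sorting subunit, for Tuba1a. They included Hspa8 (0.85), a constitutive heat shock chaperone, for Tuba1b. For Tuba1c they were Hfe (0.98), Tcn2 (0.96) and Vamp8 (0.96), and for Tuba4a Hspa12a, Amph and Cntn1 (0.96 each), of which Cntn1 is a neuronal adhesion molecule. They were led by Pkm (0.91), a glycolytic enzyme, for Tubb2a, by Arpc1b and Actb (0.93 each), an actin branching subunit and beta actin, for Tubb2b, and by Tpi1 (0.84), a glycolytic enzyme, for Tubb3. For Tubb4a the first was Phyhipl (0.94), and for Tubb5 it was Ak1 (0.90).

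Of 6 measured other tubulin genes, among them Tubb4b and the gamma tubulins Tubg1 and Tubg2, 0 passed in any of the 5 contrasts. Tubb4b had log2 changes of 0.05 ± 0.10 in WT and -0.13 ± 0.10 in EZH2nHom after kainate. Of 23 folding and assembly genes, 0 rose and 1 fell after kainate in WT, while 6 rose and 0 fell in EZH2nHom against WT after saline (median 0.20, against 0.02 over all genes). Over all genes 9.47% were higher and 2.57% lower in the former contrast, and 8.33% and 5.16% in the latter. These included Tbce (0.50 ± 0.10), a cofactor that assembles the dimer, Tcp1 (0.32 ± 0.10), a chaperonin subunit, Pfdn5 (0.33 ± 0.09), a prefoldin subunit, and Scaper (0.46 ± 0.08), which takes part in tubulin message decay. Scaper fell by 0.44 on the log2 scale after kainate in EZH2nHom (± 0.09).

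Of 24 tubulin modifying enzymes measured, 1 rose and 6 fell after kainate in EZH2nHom, against 2 and 0 in WT. This list was chosen with earlier results of these data known, so the counts are a description. Over all genes 14.3% were higher and 11.8% lower in EZH2nHom, and 9.47% and 2.57% in WT. The falls included Ttll1 (-0.47 ± 0.09) and Ttll7 (-0.50 ± 0.11), which add glutamate chains to tubulin tails, and Tpgs2 (-0.49 ± 0.10), a subunit of the polyglutamylase complex. Svbp, the partner of the enzymes that remove the last tyrosine, rose by 0.48 ± 0.14 in WT and 0.76 ± 0.15 in EZH2nHom, and Sirt2, a deacetylase rich in oligodendrocytes, rose by 0.54 ± 0.13 in WT. For this list the median was -0.31 in EZH2nHom and 0.00 in WT, against -0.02 over all genes in both. None of 24 passed for the difference of the responses by edgeR, where 0.00% of all genes passed.

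Of 27 microtubule-associated proteins, 1 rose and 10 fell after kainate in EZH2nHom (median -0.18), and 1 rose and 1 fell in WT (median -0.07). The shares over all genes are those just given for the 2 kainate contrasts, 14.3% and 11.8% in EZH2nHom and 9.47% and 2.57% in WT, also for the lists that follow. The plus-end protein Mapre1 rose by 0.33 ± 0.07 in WT and 0.33 ± 0.08 in EZH2nHom, and Map7 fell by 0.31 and 0.41 on the log2 scale. After kainate Mapt, the gene of tau, was lower in EZH2nHom than in WT (-0.39 ± 0.09), as was Dcx of immature neurons (-0.48 ± 0.11). Summed mature neuron markers were 3748 to 6482 CPM in WT kainate and 3860 to 5191 in EZH2nHom kainate libraries, and 4 of 12 fell in EZH2nHom against 1 in WT. Of 12 stathmins and severing enzymes, 2 rose in WT and 1 rose and 2 fell in EZH2nHom after kainate. Fignl1, a severing relative also used in DNA repair, rose by 2.10 ± 0.42 and 1.60 ± 0.42. Of 18 mitotic spindle genes, 17 rose in WT (median 2.72) and 18 in EZH2nHom (median 2.92). They included Nusap1 (2.71 ± 0.36 and 3.02 ± 0.37) and Prc1 (3.29 ± 0.45 and 3.37 ± 0.46), which bundle spindle microtubules. This list too was chosen with earlier results of these data known. None of 18 passed for the difference of the responses, where 0.00% of all genes passed.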

How the data were processed

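Per the labels' protocols, libraries were made from total RNA after ribosomal depletion. The authors deposited whole-number read counts per gene for 19 libraries, and a table of normalised signal, counts divided by 1 size factor per library, used here for gene symbols (32313). The submitters' processing notes name mm39, DESeq2 and DESeq. Aligner, counting program, annotation release and strand setting are not given in the sources used here. EZH2nHom kainate columns are numbered from 2 and the titles from 1; replicate numbers here follow the titles.

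Counts were analysed with edgeR 4.0.16 in R 4.3.3 (filterByExpr, TMM, robust quasi-likelihood fit of group means over 19 libraries, two-sided tests, Benjamini-Hochberg adjustment over 19234 genes, threshold 0.05), and isotype shares by exact permutation. The scripts were tested on simulated data. SE is the log2 change divided by the root of F. Levels per kilobase used GENCODE M21 exon lengths, whose build (GRCm38) is not that of the files. No coordinates were taken from it. Precision rests on 24496685 to 43948317 reads per library.

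Members and lists were chosen with earlier results of these data known. The rule for named genes took the 10 members, up to 4 genes of smallest p per list and contrast, and 3 genes most correlated with each member among those of at least 5 CPM. Ezh2, Gm49450, Gm20388, Stk16 and Xist were named after their values were seen.

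Same-numbered WT saline and kainate libraries deviated together (correlations of 0.30, 0.59, 0.36, 0.25 and 0.33, and 4 of 5 matched best with their own number). The replicate block was run for that reason. Same-numbered libraries of the 2 genotypes correlated by 0.07 to 0.55 after saline and -0.05 to 0.53 after kainate. Code prefixes did not follow the number, joining WT saline 4 to kainate 1, and saline 2 to kainate 2, 3 and 4. No label gives a pairing, so it is uncertain, and the main fit paired no libraries. Alternatives were DESeq2 1.42.0 (size factors and Wald test), no filter, a filter of 5 CPM in 4 libraries, fits to the groups compared, the replicate block, a threshold of 0.01, other denominators of the shares and leaving out each library. Added after seeing the data were covariates for structural RNA share, Xist and choroid plexus markers, the libraries without Xist reads, and library totals as scaling. Coding 3′ ends of the remaining members are not reported here.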

Additional observations from a re-analysis of the deposited data

Results flagged for a closer look

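In 4 of 40 groups of libraries a member's highest or lowest value stood far from the rest by Dixon's gap ratio, which chance alone gives in about 1 of 20 groups. Tuba4a was at 393 CPM in EZH2nHom saline replicate 4, with the next at 411. Tubb2a was at 680 CPM in WT kainate replicate 5 (next 534) and at 657 CPM in EZH2nHom saline replicate 5 (next 578). Tubb4a was at 169 CPM in WT saline replicate 4, with the next at 196.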

How the results depend on the processing

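Of 1960 values for single members under 33 alternatives, 0 reversed a call, 23 lost one, 21 gained one and 1916 kept their side of the threshold. A further count, 95, turned sign with neither value passing. All 40 group means in CPM stayed within 1 SD under DESeq2 size factors. With the replicate block no call for a member changed in the genotype contrasts. For WT kainate against saline 5 members passed with the block and 3 without it, with 2477 and 2316 of all genes passing. The choice of members used that contrast, so nothing is read from these counts. The DESeq2 Wald test passed 1 member for the difference of responses, a contrast built from the kainate changes taken to have chosen the members. With only libraries without Xist reads, 1 member passed after saline between genotypes and Tuba1b was at 0.23. With library totals alone 1 passed, Tuba1b was at 0.07 and the members' median was -0.08. The causes were not tested.

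Leaving out 1 library at a time, 1 to 2 members passed for EZH2nHom against WT after saline and 0 to 1 after kainate. Tuba1b was at 0.23 to 0.32 after saline. The count was 1 after saline without WT saline replicate 2, and 1 after kainate without WT kainate replicate 4 or EZH2nHom kainate replicate 3. For kainate in WT 2 to 5 members passed, 5 without EZH2nHom kainate replicate 2, with 1365 to 3414 of all genes passing. The choice of members used that contrast, so nothing is read from its counts. Among all genes, EZH2nHom against WT gave 2596 calls after saline and 1463 after kainate, but 5604 and 4 in fits to the groups compared, 4423 after saline with library totals, and 1029 and 36 with only libraries without Xist reads. It gave 284 after kainate and 1212 after saline at a threshold of 0.01. After kainate it gave 2224 by the DESeq2 Wald test and 959 with no filter. Kainate gave 2316 calls in WT, 1083 at 0.01 and 1539 without Xist libraries, and 5012 in EZH2nHom, 3066 in a fit to the groups compared and 2815 at 0.01. The difference of responses gave 0, and 14 by the Wald test. After saline 1603 were higher and 993 lower, against 1177 and 1280 with the stricter filter, 424 and 3999 with library totals, 2891 and 2713 in the fit to the groups compared, and 523 and 506 without Xist libraries. After kainate 878 were higher and 585 lower, against 385 and 1201 with library totals. Relabelling within replicate numbers was not run for the shares, since no label pairs the genotypes by number. Tubb6 in saline libraries is limited by depth.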

Other observations

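The lists of other genes around the microtubule, chosen with earlier results of these data known, were also counted between genotypes after saline. In that contrast 8.33% of all genes were higher and 5.16% lower in EZH2nHom. Of 12 stathmins and severing enzymes 4 were higher and 0 lower by edgeR's quasi-likelihood test (median log2 change 0.13, against 0.02 over all genes). They were Katna1 (0.49 ± 0.09 SE) and Spast (0.35 ± 0.07), which cut microtubules, and Stmn4 (0.55 ± 0.15) and Stmn3 (0.37 ± 0.11), which bind free tubulin dimers. Of 27 microtubule-associated proteins 5 were higher and 1 lower, Clip1 (0.30 ± 0.08), a plus-end protein, among the former and Map1a (-0.49 ± 0.15), a stabiliser of mature dendrites, the latter. Of 24 modifying enzymes 3 were higher, Ttll1 (0.39 ± 0.09), Tpgs1 (0.55 ± 0.13) and Agtpbp1 (0.28 ± 0.09), a deglutamylase. That count is near the share over all genes, of which 13.5% passed. Over all genes the split of 1603 higher and 993 lower became 424 and 3999 with library totals and 1177 and 1280 with the stricter filter, and the lists were not counted under those settings. These comparisons carry the same uneven structural RNA, Xist and code prefixes as those of the tubulin genes, whose part was not tested.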
